A study of Mus musculus with 29 samples.

Results

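The heavy chain and kappa chain V genes of immunoglobulins were described in whole blood RNA of mice after irradiation. The genes chosen were those whose symbol starts with Ighv or Igkv followed by a digit and whose mean normalised value was at least 5 over the 29 libraries. This rule took 136 of the 50384 gene symbols in the table, 61 of 183 Ighv symbols and 75 of 160 Igkv symbols. The lowest members were Igkv1-99 with a mean of 5.20 and Igkv4-58 with 5.22, and the highest symbols left out were Igkv12-38 with 4.997 and Ighv14-1 with 4.86. The 136 members held 94.9% of the summed value of all 343 V symbols, and 73 of the 343 symbols were listed at 0 in every library.

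Each B cell joins a V gene to D and J segments at the heavy chain locus, and a V gene to a J segment at a light chain locus, so that all descendants of that cell transcribe the same pair of V genes. The RAG1 and RAG2 proteins cut the segments, and the end of the V gene together with bases added or lost at the joint forms the third complementarity determining region, a loop that contacts antigen. The mix of V genes in blood RNA therefore reflects many B cell clones, and a plasma cell, which secretes antibody, holds far more of this RNA than a resting B cell.

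The 29 male mice were of a genotype given as LJ, and whole blood was taken at day 120, with 1 library per animal. The sham group (n = 10) was sham irradiated and carried the group label Live. The other 19 mice had 11.35 Gy to the upper body, and carried the group label Live (n = 10, called Live here) or Die (n = 9, called Die). The study looked in blood for responses to radiation and for markers of survival in delayed lung injury. The labels do not say how the outcome or its time was defined, and no age is given. Values are the authors' normalised counts per gene symbol, and the number of reads behind them is not known. In bulk blood, fewer B cells and less V gene RNA per B cell cannot be told apart.

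The sham, Live and Die groups all held the markers of blood in all libraries. The summed value of Hba-a1, Hbb-bs and Alas2, genes of red cells, was at least 645360, and the summed value of 12 B cell genes lay between 27359 and 58480. The lung genes Sftpc and Scgb1a1 were listed at 0 in every library, and Sftpb reached at most 20.7. In 3 libraries an unusually large number of expressed genes (mean of 50 or more) had a value of 0: 828 in sham replicate 1, 754 in Die replicate 2 and 506 in Die replicate 14, against at most 220 elsewhere. In 6 libraries, sham replicate 1 and Die replicates 2, 3, 4, 10 and 14, Rn7s1 and Rn7s2, the 7S RNA that serves in targeting secreted proteins to the endoplasmic reticulum, made up less than 10% of the total. Of the 3 monocyte genes Ccr2, Cx3cr1 and Csf1r, 2 were called lower for Live against sham in limma, where 0.0411% of all genes were called. The log2 changes were −1.40 and −1.53 for Ccr2 and Cx3cr1. For irradiated against sham 1 of the 3 was called, beside 0.0165% of all genes, and for Die against sham 0, beside 0%. The T cell list had 0 called genes. The main results are given with and without these libraries.

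The bases that end the V exon of the most abundant V genes are shown because they start the loop that contacts antigen. The sequences are the last 75 bases of the V exon of the 5 Ighv and 5 Igkv genes with the highest means, from GENCODE M21 on GRCm38, written 5′ to 3′ on the coding strand. Capitals run from the codon of the conserved second cysteine to the end of the exon, where joining takes place. The Ighv ends lie on the minus strand of chromosome 12, Ighv2-2 at chr12:113588267-113588341, Ighv9-3 at chr12:114140692-114140766, Ighv1-67 at chr12:115603940-115604014, Ighv1-4 at chr12:114487136-114487210 and Ighv3-6 at chr12:114288152-114288226. On chromosome 6, Igkv1-117 at chr6:68121753-68121827, Igkv1-135 at chr6:67610434-67610508 and Igkv1-110 at chr6:68271193-68271267 lie on the plus strand, and Igkv10-96 at chr6:68631963-68632037 and Igkv12-46 at chr6:69764523-69764597 on the minus strand.
Ighv2-2: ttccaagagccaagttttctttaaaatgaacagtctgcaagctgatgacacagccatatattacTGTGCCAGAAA
Ighv9-3: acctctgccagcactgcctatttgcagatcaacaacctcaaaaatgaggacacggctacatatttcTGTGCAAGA
Ighv1-67: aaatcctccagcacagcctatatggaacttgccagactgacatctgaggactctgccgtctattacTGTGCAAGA
Ighv1-4: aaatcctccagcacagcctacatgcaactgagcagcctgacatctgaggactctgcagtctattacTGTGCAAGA
Ighv3-6: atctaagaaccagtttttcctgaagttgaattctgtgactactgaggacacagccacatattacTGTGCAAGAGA
Igkv10-96: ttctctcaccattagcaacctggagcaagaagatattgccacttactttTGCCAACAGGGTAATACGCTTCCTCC
Igkv1-117: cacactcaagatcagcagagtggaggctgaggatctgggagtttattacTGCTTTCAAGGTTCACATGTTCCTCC
Igkv1-135: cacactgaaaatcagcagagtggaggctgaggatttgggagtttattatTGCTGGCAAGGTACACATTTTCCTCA
Igkv1-110: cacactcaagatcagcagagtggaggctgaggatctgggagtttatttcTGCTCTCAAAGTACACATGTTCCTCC
Igkv12-46: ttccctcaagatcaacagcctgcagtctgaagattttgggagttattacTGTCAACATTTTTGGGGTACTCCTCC

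In these 10 sequences the germline V gene gave 9 or 11 bases from the cysteine codon onward in the heavy chain and 26 bases in the kappa chain. The 4 tails of Ighv9-3, Ighv1-67, Ighv1-4 and Ighv3-6 begin with the same 9 bases, whereas the 5 kappa tails all differ. Much of the heavy chain loop comes from D and J segments and added bases, which a value per V gene does not show.

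Read sharing between V genes limits every value below. Over the members, a median of 52.9% of the 31-base words of a transcript occurred in no other gene of the annotation, 58 of 136 members had under 50%, and 9 had a neighbour with at least 98% identity. Igkv1-117 and Igkv1-110 were both among the 5 most abundant kappa genes and had 37.4% and 36.4% of such unique words. Their V exons differ at 10 of 313 bases, and the longest shared run was 142 bases. The last 300 bases are shown, chr6:68121528-68121827 and chr6:68270968-68271267 on the plus strand. Ighv2-2, the most abundant heavy chain V gene, had 31.7% unique words, and its V exon differs from that of Ighv2-4, which is not a member, at 6 of 304 bases. The last 300 bases are chr12:113588267-113588566 and chr12:113653291-113653590 on the minus strand. Capitals mark the bases that differ within each pair.
Igkv1-117: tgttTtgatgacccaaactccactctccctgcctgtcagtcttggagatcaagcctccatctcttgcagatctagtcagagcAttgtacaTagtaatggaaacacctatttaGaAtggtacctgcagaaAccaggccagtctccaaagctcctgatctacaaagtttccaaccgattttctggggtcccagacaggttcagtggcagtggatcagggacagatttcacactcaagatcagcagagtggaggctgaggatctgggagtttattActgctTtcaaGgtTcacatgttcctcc
Igkv1-110: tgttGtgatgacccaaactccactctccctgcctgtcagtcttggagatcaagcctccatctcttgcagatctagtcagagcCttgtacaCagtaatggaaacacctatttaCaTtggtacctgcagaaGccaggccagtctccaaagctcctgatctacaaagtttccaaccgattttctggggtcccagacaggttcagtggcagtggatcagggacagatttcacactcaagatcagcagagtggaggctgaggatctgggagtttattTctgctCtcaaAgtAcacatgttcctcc
Ighv2-2: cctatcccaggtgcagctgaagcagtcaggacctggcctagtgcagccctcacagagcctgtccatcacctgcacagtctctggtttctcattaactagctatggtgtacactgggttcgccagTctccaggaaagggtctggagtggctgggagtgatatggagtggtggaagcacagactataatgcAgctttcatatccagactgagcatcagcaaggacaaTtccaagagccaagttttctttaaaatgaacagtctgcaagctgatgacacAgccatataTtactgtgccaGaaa
Ighv2-4: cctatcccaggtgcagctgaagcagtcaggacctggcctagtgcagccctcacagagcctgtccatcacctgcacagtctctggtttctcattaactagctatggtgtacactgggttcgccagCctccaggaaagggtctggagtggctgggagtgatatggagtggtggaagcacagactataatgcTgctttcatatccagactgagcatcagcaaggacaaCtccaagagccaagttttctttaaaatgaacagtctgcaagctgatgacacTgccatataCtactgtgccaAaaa

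The lowest share of unique words was 2.43%, in Ighv1-71, whose closest gene was Ighv1-62-2 with 99.7% identity. Values of Ighv1-71, Ighv1-37, Ighv1-15, Ighv11-2, Igkv5-43, Igkv5-45, Igkv3-5, Igkv3-10 and Igkv6-20, the 9 members with at least 98% identity over the transcript, are uncertain. So are those of Ighv2-2, Igkv1-117 and Igkv1-110, with 97.7%, 97.5% and 97.5% over the transcript. Over the V exon alone Ighv2-2 and Ighv2-4 shared 98.03%. Whether LJ mice carry the same V genes as the reference genome was not tested.

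Expression fell mostly on annotated V genes rather than pseudogenes. Of 213 symbols annotated as V genes 130 were members, which is 61.0%, and of 128 symbols annotated as V pseudogenes 6 were members, which is 4.69%. The pseudogene members were Ighv1-14, Ighv1-25, Ighv3-2, Ighv4-2, Igkv1-108 and Igkv2-107. Ighv1-14 had a lowest value of 0, a median of 16.5 and a highest of 29.6 in sham, 0, 33.4 and 79.5 in Live, and 0, 23.8 and 48.8 in Die. It was above 0 in all but 1 library of each group, and the group ranges overlapped.

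Along both loci the genes near the J segments held the largest part of the expression, per kilobase of transcript. The V symbols of each locus were cut by order from J into 3 parts of like size. The shares are over members only, and the parts differ in members. From nearest to farthest they held 25, 19 and 17 Ighv members and 30, 21 and 24 Igkv members. The shares below are not divided by these counts. The part nearest to J held 43.7% of the heavy chain share, the middle part 32.5% and the farthest 23.8%, as means over the 29 libraries. At the kappa locus the nearest part held 50.1%, the middle part 13.7% and the farthest 36.2%. The middle part of the kappa locus was the lowest in every group mean, at 14.1% ± 1.56 (SD) for sham, 13.6% ± 2.34 for Live and 13.3% ± 1.26 for Die. These group differences were smaller than the SD.

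**Figure D1:**
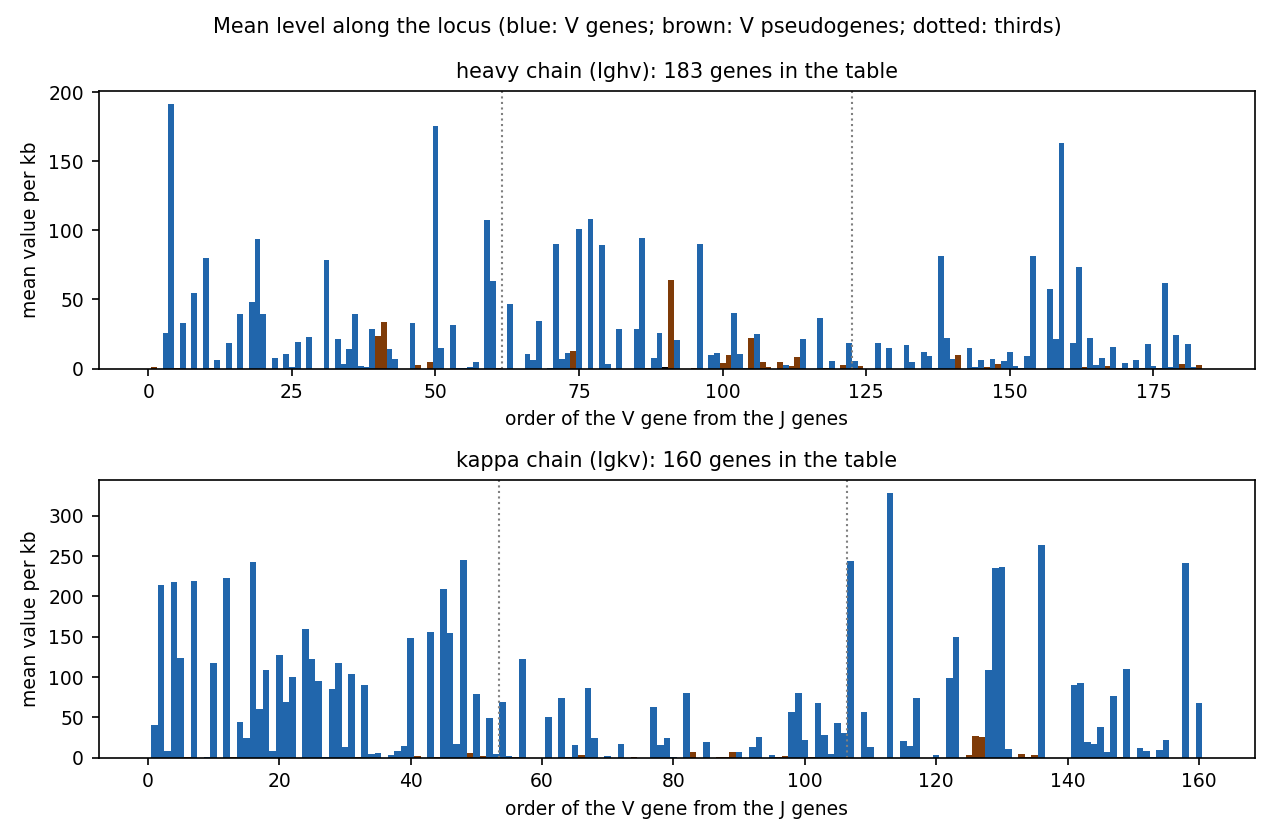
Mean value per kilobase of transcript over the 29 libraries (y axis) for every Ighv and Igkv symbol in the table, ordered by distance from the J genes (x axis, gene order), with V pseudogenes in brown. The highest heavy chain bar is Ighv2-2 at 192 per kb and the highest kappa bar is Igkv10-96 at 328 per kb, and the middle part of the kappa locus holds few tall bars.

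By family, Ighv1 held 40.8% of the heavy chain share per kilobase with 27 members, Ighv2 15.005% with 5, Ighv5 9.49% with 8 and Ighv9 8.91% with 3. In the kappa chain Igkv3 held 15.8% with 7 members, Igkv1 12.2% with 8, Igkv4 11.2% with 18 and Igkv6 10.7% with 8. Ighv6, a family with 2 members, held 5.72% ± 2.06 (SD) in the 10 sham, 3.07% ± 1.55 in the 10 Live and 3.12% ± 1.62 in the 9 Die libraries. Igkv12, with 5 members, held 9.76% ± 2.20 (SD), 8.19% ± 2.27 and 6.10% ± 3.15 in the same order, with a lowest Die share of 0%. Other families had higher means in Live and Die than in sham. Ighv1 held 37.9% ± 4.54 (SD), 43.2% ± 6.33 and 41.5% ± 6.97 in the same order. Igkv8 held 8.42% ± 3.24 (SD), 10.1% ± 1.74 and 9.83% ± 4.43. These families are examples picked without a rule, and their shares are given with all libraries only. These are shares of members chosen with results known and were not tested.

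Both loci were read broadly. Over the 29 libraries the 5 highest members held 23.6% of the mean heavy chain value and 18.6% of the mean kappa value, and 14 Ighv and 17 Igkv genes made up the first 50%. Per kilobase, Ighv2-2 had the highest mean level of the heavy chain at 192, followed by Ighv9-3 at 176, Ighv1-67 at 163, Ighv1-4 at 108 and Ighv3-6 at 108. The first rank of Ighv2-2 rested on sham replicate 1: over the other 28 libraries Ighv9-3 was first at 174 per kilobase and Ighv2-2 second at 166. In the kappa chain Igkv10-96 was highest at 328 per kilobase, followed by Igkv1-117 at 264, and these ranks held when sham replicate 1, the 3 libraries rich in zeros or the 6 low in 7S RNA were left out. Detection was patchy: 4 of the 136 members were above 0 in all 29 libraries, 87 in at least 20, and 13 in fewer than 15.

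Sham replicate 1 held the highest values of Ighv2-2 and Ighv1-67, and leaving it out moved their means over all libraries from 67.4 to 58.5 and from 52.7 to 44.3. Ighv2-2 had a lowest value of 0, a median of 48.0 and a highest value of 317 in sham, 24.1, 68.8 and 161 in Live, and 44.0, 68.0 and 102 in Die. The value of 317 came from sham replicate 1, and the next sham library was at 64.8. Ighv1-67 had 0, 25.4 and 288 in sham, 14.7, 39.5 and 110 in Live, and 0, 47.0 and 133 in Die. The highest sham value was again replicate 1, and the group ranges overlapped. Ighv9-3, above 0 in all libraries, was steadier, with 30.5, 65.7 and 83.2 in sham, 22.9, 59.4 and 95.2 in Live and 33.9, 55.7 and 115 in Die.

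Ighv1-4 and Ighv3-6 varied most at the low end. Ighv1-4 had 0, 26.6 and 46.3 in sham, 35.7, 54.5 and 89.7 in Live and 0, 20.5 and 68.4 in Die. It was above 0 in all Live libraries and listed at 0 in 2 sham and 3 Die libraries, and the ranges overlapped. Ighv3-6 had 5.88, 37.4 and 68.0 in sham, 0, 30.6 and 60.8 in Live and 0, 47.7 and 143 in Die, with the value of 143 in Die replicate 3 standing above a next value of 56.9.

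The leading kappa genes spread less. Igkv10-96 had a lowest value of 42.04, a median of 103 and a highest of 143 in sham, 99.1, 134 and 193 in Live, and 38.8, 130 and 233 in Die. Igkv1-117 had 68.6, 101 and 169 in sham, 67.9, 115 and 174 in Live, and 0, 97.8 and 145 in Die. In both genes the ranges of the 3 groups overlapped, and the only value of 0 was Igkv1-117 in Die replicate 2. Igkv1-135, Igkv1-110 and Igkv12-46 had sham medians of 101, 87.6 and 92.7, Live medians of 105, 106 and 95.2, and Die medians of 68.9, 80.2 and 83.9. None of these 3 was at 0 in a sham or Live library, and each was listed at 0 in 1 or 2 Die libraries.

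**Figure D2:**
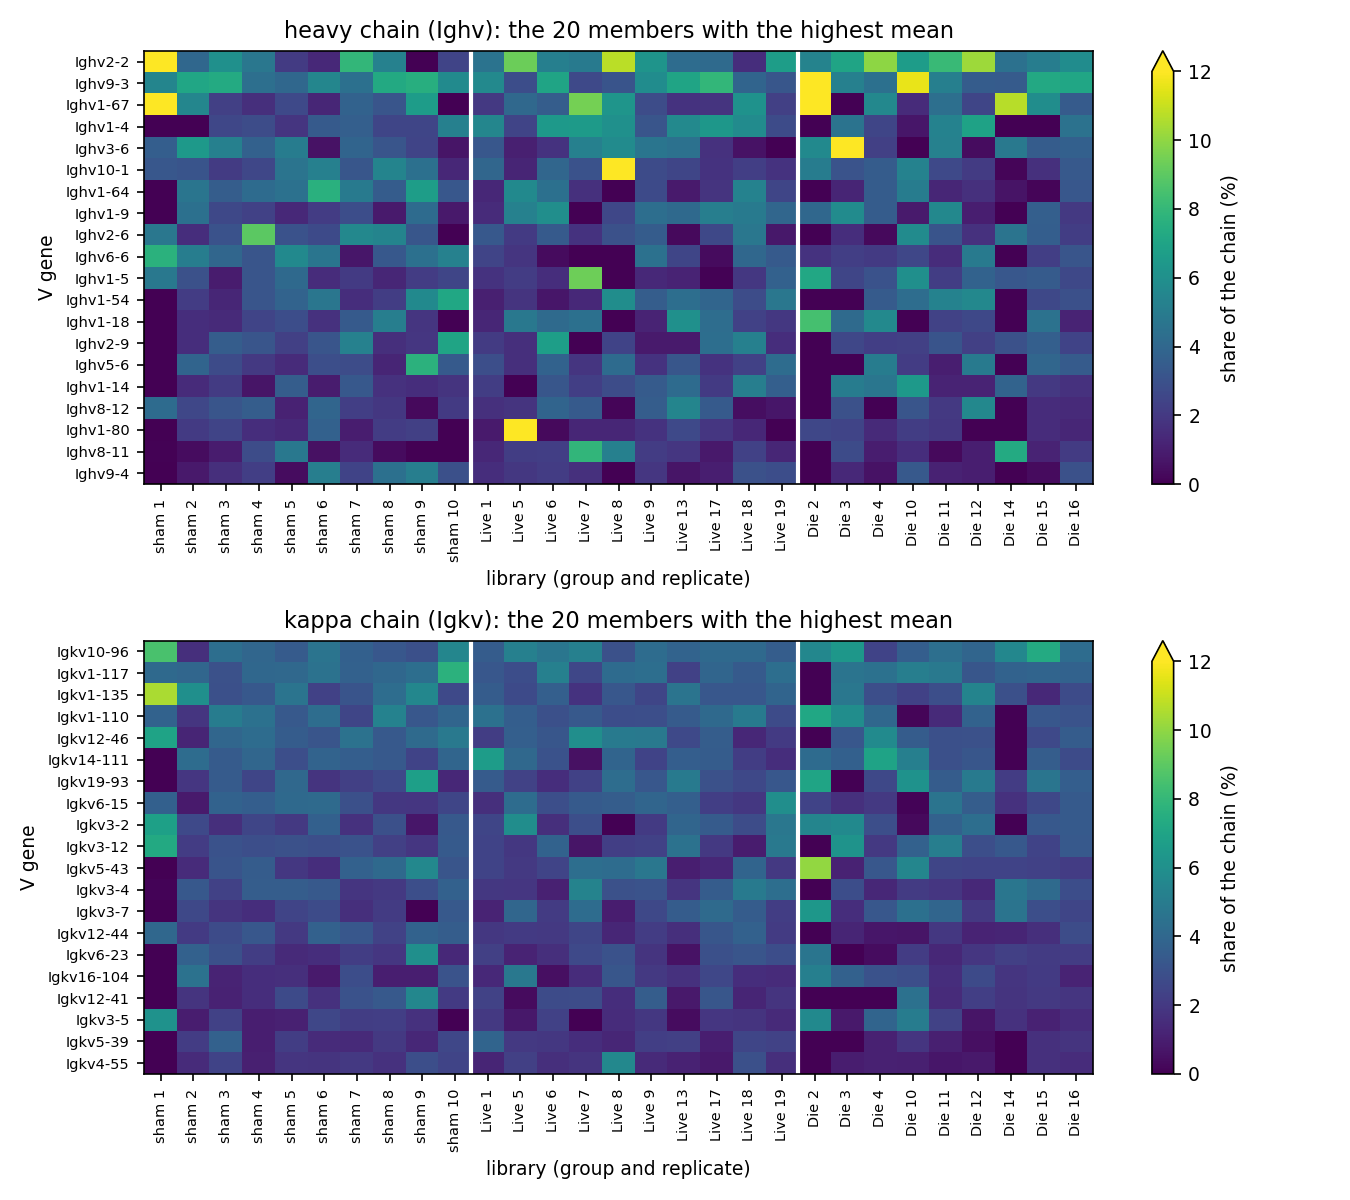
Share of its chain (colour, %) of the 20 Ighv (top) and 20 Igkv (bottom) members with the highest means, in each of the 29 libraries (x axis), with white lines between sham, Live and Die. Bright cells are single genes in single libraries, such as Ighv2-2 at 23.0% in sham replicate 1 and Ighv10-1 at 17.7% in Live replicate 8, and the darkest columns are sham replicate 1 and Die replicate 2.

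The most used heavy chain gene differed between animals. Across 29 libraries 12 different Ighv genes came first: Ighv9-3 in 10 libraries, Ighv2-2 in 6, Ighv1-67 in 4 and 9 others in 1 library each. Ighv9-3 was first in 3 sham, 4 Live and 3 Die libraries. In the kappa chain 13 different genes came first, Igkv10-96 in 5 libraries, Igkv1-110 and Igkv1-135 in 4 each, and no other in more than 3. Igkv10-96 was first in 1 sham, 0 Live and 4 Die libraries. After division by transcript length the same gene came first in 29 of 29 libraries for Ighv and in 23 of 29 for Igkv.

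The share of the most used gene measured dominance. For Ighv it was lowest at 5.67%, with a median of 7.66% and a highest of 23.0%, in sham, 5.63%, 7.01% and 17.7% in Live, and 7.12%, 10.2% and 14.8% in Die. The highest shares were Ighv2-2 in sham replicate 1, Ighv10-1 in Live replicate 8 and Ighv3-6 in Die replicate 3, and all 9 Die libraries lay above the Live median while the ranges overlapped. Without the 6 libraries low in 7S RNA the mean share was 7.55% ± 0.905 (SD) in 9 sham, 8.66% ± 3.68 in 10 Live and 8.18% ± 1.45 in 4 Die libraries, against 9.09% ± 4.96, 8.66% ± 3.68 and 10.4% ± 2.78 with all libraries. For Igkv the share had medians of 5.17% in sham, 5.42% in Live and 6.14% in Die, and the highest value was Igkv2-137 at 11.3% in Die replicate 2.

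A gene was said to stand out in a library where its share was at least 10 times its median share over the 29 libraries and at least 2% of its chain. This was met 49 times among Ighv genes, in 23 libraries and by 21 genes, and 8 times among Igkv genes, in 5 libraries and by 7 genes. In 21 of the 49 heavy chain cases and 1 of the 8 kappa cases the gene's median share was 0. By group the heavy chain count was 18 in sham, 12 in Live and 19 in Die, and the kappa count was 3, 0 and 5. Of these, 11 heavy chain and 5 kappa cases were in the 3 libraries with many genes at 0. The 11 were 2 in sham, 0 in Live and 9 in Die, and the 5 were 2, 0 and 3. The higher counts in Die thus lay partly in these sparse libraries.

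Among genes with a median share above 0, Igkv9-123 had the largest ratio, 91.7 times its median, with 2.05% of the kappa chain in Die replicate 14. Ighv1-74 reached 4.02% in Die replicate 12, 58.7 times its median, and also stood out in Live replicate 8 and Die replicate 2. Ighv1-77 reached 4.77% in Die replicate 3 and Ighv9-1 9.24% in sham replicate 1. With a median of 0, Ighv1-15 held 9.73% in Die replicate 14 and Ighv1-34 6.94% in Live replicate 9, where it was the most used heavy chain gene. The largest gene share outside the libraries with many genes at 0 or low 7S RNA was Ighv10-1 in Live replicate 8 with a value of 130, followed by Ighv1-80 in Live replicate 5 with 12.04% and a value of 209.

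Evenness was measured by the effective number of genes, which is the exponential of the Shannon entropy of the shares and equals the number of genes if all are used alike. For Ighv the lowest, median and highest effective number was 10.4, 36.3 and 41.9 in sham, 18.5, 34.9 and 44.8 in Live, and 15.05, 30.5 and 45.3 in Die. For Igkv it was 17.9, 49.6 and 53.4 in sham, 42.1, 47.9 and 52.1 in Live, and 16.4, 40.0 and 54.5 in Die. The 3 ranges overlapped in both chains, the lowest libraries were sham replicate 1 for Ighv and Die replicate 2 for Igkv, and the Live group had the narrowest kappa range.

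As means, the Ighv effective number was 33.1 ± 9.74 (SD) for the 10 sham, 32.9 ± 7.36 for the 10 Live and 29.3 ± 10.3 for the 9 Die libraries. The Igkv means were 44.8 ± 11.4, 47.2 ± 3.45 and 40.4 ± 11.4 in the same order. In Ighv the differences between group means were smaller than the SD of any group. In Igkv, Die minus Live was −6.80, larger than the SD of Live and smaller than that of Die. Without the 6 libraries low in 7S RNA, the Die mean was the highest of the 3. Ighv then had 35.6 ± 5.92 (SD) in 9 sham, 32.9 ± 7.36 in 10 Live and 38.1 ± 6.08 in 4 Die libraries, and Igkv 47.8 ± 6.78, 47.2 ± 3.45 and 49.9 ± 3.23.

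The effective number moved with detection. In the 10 libraries with the fewest genes above 0 in the whole table, 14975 to 17621, the median was 26.0 for Ighv and 40.1 for Igkv. In the middle 10 it was 33.9 and 49.0, and in the 9 libraries with the most genes, 19862 to 24275, it was 38.9 and 51.6. The number of members above 0 ran from 18 to 59 of 61 for Ighv and from 21 to 75 of 75 for Igkv. Pielou evenness, the entropy divided by its maximum for the genes detected, had medians over the same 3 sets of libraries of 0.912, 0.923 and 0.924 for Ighv and, in the other direction, 0.936, 0.932 and 0.928 for Igkv. Its group means were 0.914, 0.915 and 0.918 for Ighv and 0.927, 0.932 and 0.931 for Igkv in sham, Live and Die. The sham Ighv mean rested on sham replicate 1 at 0.809, and without it sham was the highest of the 3 at 0.926. The part of detection in the differences in effective number was not tested.

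**Figure D3:**
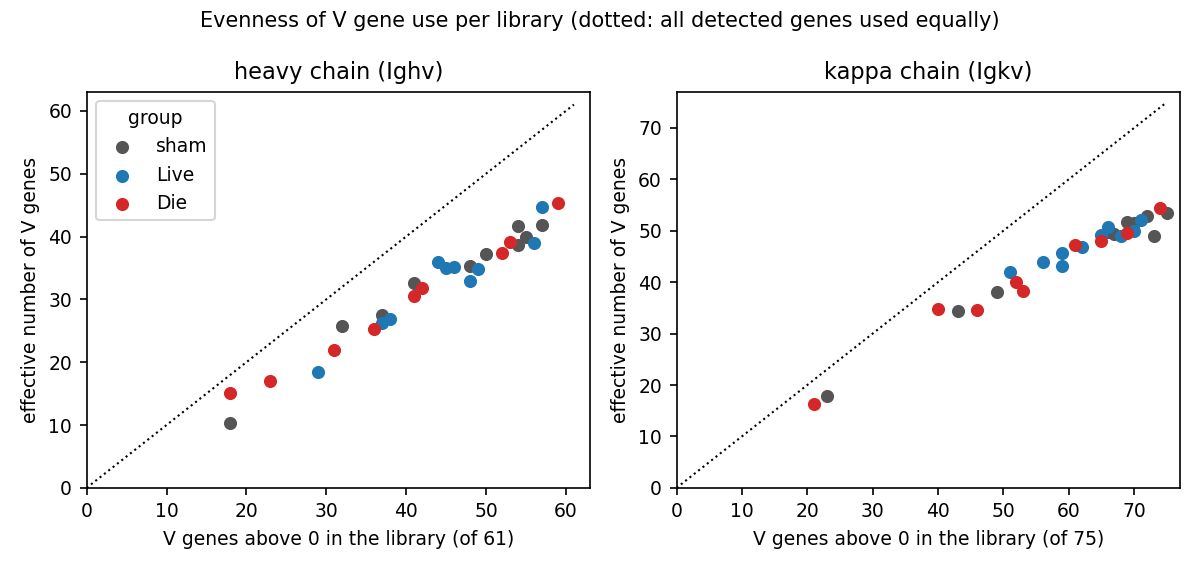
Effective number of V genes (y axis) against the number of V genes above 0 (x axis) in each library, for Ighv (left) and Igkv (right), coloured by group; the dotted line marks equal use of all detected genes. Points of all 3 groups lie along a common band, from sham replicate 1 and Die replicate 2 at the lower left to Die replicate 16 near the upper right.

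T cell receptor beta V genes, which T cells join in the same way, gave a comparison in the same libraries. The 13 Trbv genes with a mean of at least 5 had an effective number of 9.59 ± 1.10 (SD) for sham, 9.23 ± 1.11 for Live and 9.27 ± 1.33 for Die. The lowest effective number, 6.82, was again Die replicate 2. Trbv Pielou evenness was 0.913 ± 0.016 (SD), 0.886 ± 0.032 and 0.901 ± 0.023 in the same order. On it 4 Live libraries lay below the lowest sham library. For the share of the most used Trbv gene, all 10 Live libraries lay above the sham median. The ranges overlapped in each measure.

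The summed value of a chain measured how much V gene RNA a library held. The Igkv sum had a lowest value of 1664, a median of 2452 and a highest of 3183 in sham, 2679, 3238 and 4019 in Live, and 1120, 2353 and 3833 in Die. All 10 Live libraries lay above the sham median and 5 above the highest sham library, and the Die group covered nearly the whole range. The Ighv sum had 691, 1039 and 1379 in sham, 736, 1237 and 1736 in Live and 749, 988 and 1398 in Die. The heavy chain ranges overlapped throughout, with 3 Live libraries above the highest sham library.

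The mean Igkv sum was 2431 ± 458 (SD) for the 10 sham, 3284 ± 451 for the 10 Live and 2434 ± 900 for the 9 Die libraries, and Live exceeded sham by 852, more than the SD of either group. As a share of the library total the group means were closer, 0.0102%, 0.0107% and 0.0102%. Within the Die group the Igkv sums did not overlap when the libraries were split by 7S RNA share. The Igkv sum was 1120 to 2353 in the 5 Die libraries with under 10% and 2970 to 3833 in the other 4. Cd79a, a B cell receptor signalling chain, was 550 to 942 in the former and 1612 to 2428 in the latter. Igkc, the kappa constant gene, overlapped, with 6297 to 8788 in the former and 7764 to 9405 in the latter. The Igkv sum per 100 of Igkc value was 12.7 to 32.1 and 33.1 to 42.3. This split was chosen after seeing the data. Without the 6 low libraries the mean Igkv sum was 2517 ± 392 (SD) in 9 sham, 3284 ± 451 in 10 Live and 3275 ± 383 in 4 Die libraries. Whether the 7S RNA share has a part in these differences was not tested.

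**Figure D4:**
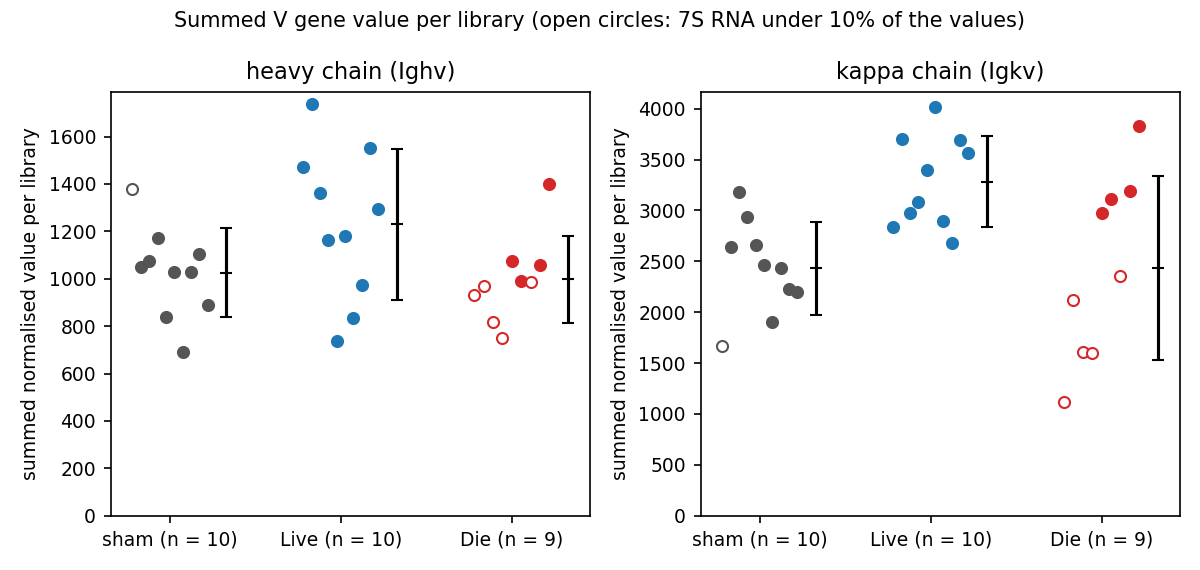
Summed normalised value of the Ighv (left) and Igkv (right) members in each library (y axis, from 0) by group (x axis), with the mean and SD in black; open circles are the 6 libraries with 7S RNA under 10%. In the kappa panel the 5 open Die circles lie between 1120 and 2353, under the 4 filled Die circles.

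The contrasts against sham share the same sham libraries. The first question of the design was which V genes differed after irradiation, and none of the 136 did at the threshold used. In limma with Benjamini-Hochberg adjustment over the 24310 genes tested, 0 members had an adjusted p under 0.05 for irradiated against sham, where 0.0165% of all genes were called. At an unadjusted p under 0.05 there were 8 members, 5.88%, against 7.4% of all genes, with 4 higher and 4 lower where 3.45% and 3.95% of all genes were. The median log2 change was −0.11 over the Ighv members, 0.14 over the Igkv members and 0.02 over all genes. On the log2(value + 0.5) scale a library at 0 weighs heavily: in 38 of the 40 changes named for the 4 contrasts the fitted change was larger than the log2 ratio of the group means. For Ighv2-2 the fitted change was 1.14 and the log2 ratio of means 0.10. The standard error of a member had a median of 0.89 on the log2 scale, so that a change had to be large to be told from the spread between animals.

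The smallest unadjusted p values for irradiated against sham were those of 2 kappa genes with higher values. Igkv14-100 had 0, 10.3 and 79.0 in sham, 6.93, 29.2 and 96.4 in Live and 1.09, 34.5 and 57.0 in Die. It was listed at 0 in 3 sham libraries and in no irradiated library, and the ranges overlapped. Its log2 change was 2.14 ± 0.75 (SE), with an adjusted p of 0.44 in limma. Igkv3-7 had 0, 54.2 and 73.5 in sham, 33.2, 102 and 146 in Live and 33.5, 71.2 and 116 in Die, a log2 change of 1.85 ± 0.66 (SE) with an adjusted p of 0.44. Leaving out sham replicate 2, 5 or 6 or Die replicate 14 left 5 members at an unadjusted p under 0.05, and without sham replicate 1 the Igkv median was −0.23. On the lower side Igkv6-14 and Ighv1-37 had log2 changes of −1.97 and −2.13, with adjusted p values of 0.61 and 0.64 in limma.

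For Live against sham 0 members were called, against 0.0411% of all genes, and 9 members had an unadjusted p under 0.05, 6.62% against 7.68% of all genes, with 7 higher and 2 lower where 3.76% and 3.93% of all genes were. The median log2 change was 0.09 for Ighv and 0.59 for Igkv, with 60 of 75 Igkv members above 0, beside a median of 0.01 over all genes. The smallest p was that of Ighv8-11, with 0, 4.91 and 40.2 in sham, 7.78, 27.7 and 92.3 in Live, and a log2 change of 2.49 ± 0.86 (SE) with an adjusted p of 0.35 in limma. All Live libraries were above 0 and 2 sham libraries were not, and the ranges overlapped. Igkv8-27 had a log2 change of 2.15 and Ighv8-8 of 2.33, and Ighv6-6 and Igkv4-61 had −1.89 and −2.18, with adjusted p values between 0.50 and 0.63. Without sham replicate 1 the Igkv median was 0.29, and with the 7S RNA share as a covariate it was −0.16 and the Ighv median −0.33.

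For Die against sham 0 members and 0% of all genes were called, and 7 members had an unadjusted p under 0.05, 5.15% against 8.67% of all genes, with 2 higher and 5 lower where 4.13% and 4.54% of all genes were. The median log2 change was −0.31 for Ighv and −0.39 for Igkv, beside 0.02 over all genes. Igkv12-44 had the smallest p, with 53.2, 71.9 and 96.0 in sham and 0, 29.4 and 106 in Die, where 1 library was at 0 and the highest lay above all sham libraries. Its log2 change was −1.80 ± 0.60 (SE), with an adjusted p of 0.47 in limma. Leaving out sham replicate 1 gave 13 members at an unadjusted p under 0.05, and leaving out Die replicate 14 gave 3. Without Die replicate 2 the Igkv median was −0.06, without sham replicate 1 it was −0.64, and without Die replicate 16 it was −0.72. Without the 6 libraries low in 7S RNA the medians were 0.38 for Ighv and 0.44 for Igkv, the opposite sign.

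The second question was whether V genes separated irradiated animals by outcome. For Die against Live 0 members and 0% of all genes were called. At an unadjusted p under 0.05 there were 16 members, 11.8% against 10.3% of all genes, and all 16 were lower in Die, 13 of them Igkv genes, where 5.32% of all genes were lower and 5.02% higher. The median log2 change was −0.61 for Ighv and −0.90 for Igkv, with 65 of 75 Igkv members below 0, beside 0.00 over all genes. With a pseudocount of 5 the medians were −0.27 and −0.48. Leaving out Die replicate 2 or Die replicate 14 left 10 members at an unadjusted p under 0.05.

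Igkv5-39 had the smallest p, with 26.6, 69.7 and 110 in Live and 0, 17.9 and 68.5 in Die. It was listed at 0 in 3 Die libraries and in no Live library, and the ranges overlapped. Its log2 change was −3.03 ± 0.94 (SE), with an adjusted p of 0.35 in limma. Igkv12-44 had 43.3, 75.0 and 138 in Live, and its log2 change was −1.78 ± 0.60 (SE), with an adjusted p of 0.37. Igkv8-27, Igkv6-20 and Ighv1-4 had log2 changes of −2.78, −3.28 and −2.80, with adjusted p values of 0.37 to 0.38, and each was listed at 0 in at least 3 Die libraries. The log2 ratios of the group means were smaller in size, −1.54 for Igkv5-39, −1.01 for Igkv12-44 and −1.07 for Ighv1-4. On the higher side Ighv1-5 had the smallest p, with a log2 change of 1.26 ± 0.72 (SE) and an adjusted p of 0.55. With the 7S RNA share as a covariate the medians were 0.23 for Ighv and 0.07 for Igkv and 0 members had an unadjusted p under 0.05, and without the 6 low libraries they were 0.44 and 0.14 with 1 such member.

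**Figure D5:**
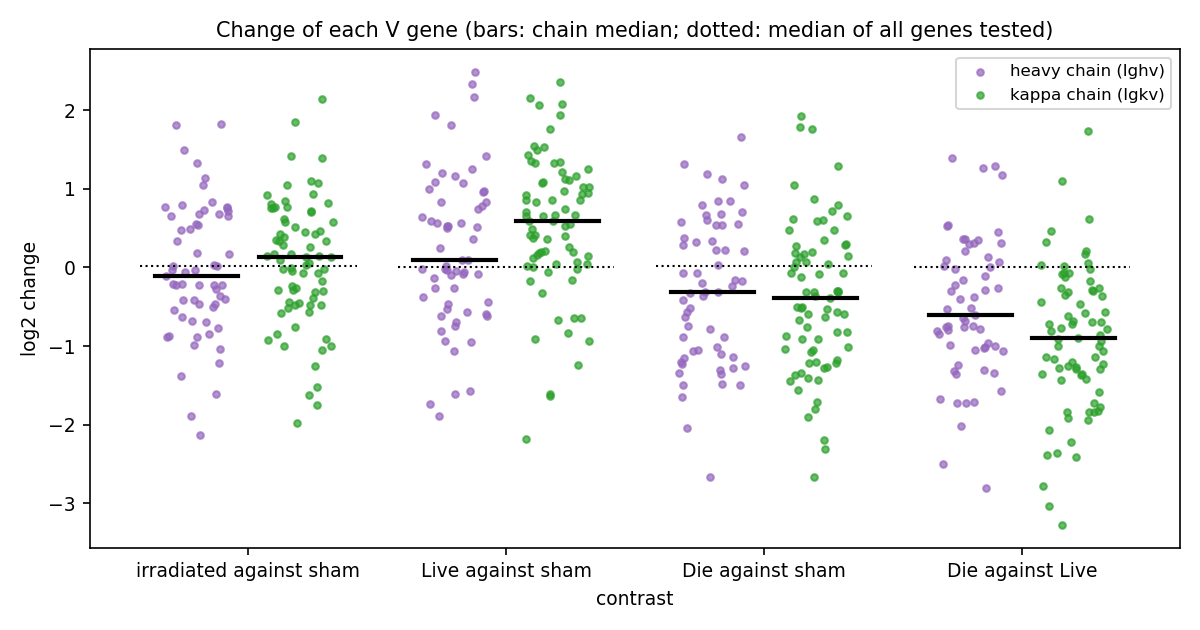
Log2 change of each member (points, y axis) in the 4 contrasts (x axis), for Ighv in purple and Igkv in green, with the chain median as a black bar and the median of all 24310 genes as a dotted line. The Igkv bar lies at 0.59 for Live against sham and at −0.90 for Die against Live, while the points of every contrast spread on both sides of 0; no point passed the threshold.

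The constant genes, which encode the rest of the antibody chains and are spliced to the V exon, gave 0 called genes of 8 heavy chain and 4 light chain genes in each contrast. Ighd, the constant gene of IgD on mature naive B cells, had 3642, 4678 and 5918 in sham, 4650, 5488 and 7549 in Live and 4334, 5922 and 9947 in Die, with a log2 change of 0.33 ± 0.12 (SE) for irradiated against sham and an adjusted p of 0.47 in limma. Igkc, the kappa constant gene, had 5640, 7064 and 9044 in sham, 7134, 8337 and 15485 in Live and 6297, 7764 and 9405 in Die. Its log2 change was 0.32 ± 0.13 (SE) for Live against sham, with an adjusted p of 0.53. The groups overlapped in both genes, with the highest Igkc value in Live replicate 5. Most heavy chain constant genes did not rise with Ighd: 3 of 8 were above 0 for irradiated against sham, with a median log2 change of −0.34. Without the 6 libraries low in 7S RNA this median was 0.11. Igha, the constant gene of IgA, ran from 240 to 3250 in Live, wider than 483 to 1848 in sham and 281 to 1232 in Die.

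Of the heavy chain constant genes, Ighg1, Ighg2b, Ighg2c, Ighg3, Igha and Ighe follow class switching. Their share of the summed heavy chain constant value was 8.64% ± 1.85 (SD) for sham, 7.90% ± 4.87 for Live and 5.92% ± 2.22 for Die. The medians were 8.39%, 6.20% and 4.97% in the same order. Live replicates 18 and 19 had the highest shares, 17.4% and 15.8%. Without the 6 libraries low in 7S RNA the sham and Die means were 8.996% and 6.48%. Ighe, the IgE constant gene, was listed at 0 in 9 sham, 8 Live and 7 Die libraries. The lambda V genes Iglv1, Iglv2 and Iglv3, an alternative to kappa, also gave 0 called genes, with Iglv1 at medians of 118, 149 and 131 in sham, Live and Die.

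Genes of early B cells, B cells and plasma cells gave 0 called genes in any contrast. Of 7 early B cell genes, 4 reached the minimum mean for testing, and Vpreb2 was listed at 0 in every library. Dntt encodes the enzyme that adds bases at the V joint. It had 0, 25.8 and 66.1 in sham, 0, 7.15 and 37.5 in Live and 0, 0 and 33.2 in Die, where 5 of 9 libraries were at 0 against 1 of 10 in sham. Its log2 change was −2.64 ± 0.97 (SE) for irradiated against sham, with an adjusted p of 0.47 in limma. The list as a whole did not fall: 3 of the 4 tested genes were above 0 in that contrast, with a median log2 change of 0.75. Without the 3 libraries with many genes at 0 this median was 0.21. Rag1 and Rag2 had sham medians of 0 and 5.51.

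Of the 12 B cell genes, Cd79a, Blk and Cd74 had an unadjusted p under 0.05 for Die against Live, all lower in Die, beside 10.3% of all genes at that level and 5.32% lower. Of the 12 plasma cell genes, Jchain, Tnfrsf17, Mzb1 and Derl3 were lower and Prdm1 higher at that level. Jchain, which links antibody units, had 224, 516 and 1253 in Live and 95.7, 384 and 683 in Die, a log2 change of −0.76 ± 0.35 (SE) with an adjusted p of 0.46 in limma. Mzb1, a chaperone of antibody secretion, had a log2 change of −1.83 ± 0.68 (SE) with an adjusted p of 0.39. The smallest adjusted p over the B cell list was 0.37 and over the plasma cell list 0.39 in this contrast. Without the 6 libraries low in 7S RNA, 0 of 12 B cell genes and 1 of 12 plasma cell genes, higher in Die, had an unadjusted p under 0.05. The log2 changes were then 0.06 for Cd79a, 0.10 for Blk, 0.03 for Cd74, −0.34 for Jchain and −0.07 for Mzb1. Without the 3 libraries with many genes at 0 they were −0.56, −0.35, −0.38, −0.60 and −0.83.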

How the data were processed

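Stranded total RNA libraries were made from whole blood after globin and ribosomal RNA removal, per the labels' protocols. Each deposited value is a signal that the authors normalised between libraries, fractional and given per gene symbol. The tools bcl2fastq 2.19, kallisto 0.44.0, DESeq2 and sleuth and the build GRCm38 come from the submitters' processing notes, without role or order. How reads common to similar V genes were divided is not given in the sources used here. Read depth was not recovered, so no counting interval is given.

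The members and lists were chosen with earlier results of these data known. Genes with a mean of at least 1 were tested with limma 3.58.1 (trend) in R 4.3.3 on log2(value + 0.5), with 3 group means, 4 contrasts and Benjamini-Hochberg adjustment over 24310 genes; SE is from limma. The irradiated group is the equally weighted mean of Live and Die. On this scale the pseudocount understates a change between low values above 0, while libraries at 0 can enlarge the fitted change beyond the ratio of means. Evenness, dominance and sums are descriptions without a test, since they are scores over the members.

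The genes named were the 5 Ighv and 5 Igkv with the highest means, up to 5 members per direction and contrast with the smallest p, the most used genes of single libraries, up to 10 genes that stood out most, and genes of the constant, lambda, early B, B cell and plasma cell lists. All 343 V symbols matched GENCODE M21 on GRCm38, which gave positions, lengths and sequences. Each animal gave 1 library, and the labels name no batch. The test and the diversity formulas were checked on simulated data. Alternatives were other pseudocounts, filters, scalings and weights, a 7S RNA covariate, a replicate block, and libraries left out.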

Additional observations from a re-analysis of the deposited data

Results flagged for a closer look

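Of 93 groups of values examined, 31 measures in 3 groups, 19 held a library that stood apart from the rest of its group by Dixon's test. For normal values chance gives about 1 in 20, or 4.65 groups. Several measures here share the same V gene values and some hold zeros, so the 19 flagged groups cannot be set against 4.65. Sham replicate 1, 1 of the 3 libraries with many genes at 0, accounted for several: an Ighv effective number of 10.4, Pielou evenness of 0.809, a share of 23.0% for its most used Ighv gene, 10.8 of Ighv value per 100 of heavy chain constant value, 317 for Ighv2-2, 288 for Ighv1-67, 6131 for Ighm and 434 for Cd79a. In the other libraries with many genes at 0, Die replicate 2 had 11.3% for its most used Igkv gene and 0 for Igkv1-117, and Die replicate 14 an Igkv Pielou evenness of 0.963.

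Among the other libraries, Live replicate 8 stood apart with 17.7% for its most used Ighv gene and Live replicate 18 with 182 for Igkv1-110. Live replicate 5, with 220 expressed genes at 0, had 161 for Ighv2-2 and 15485 for Igkc. Die replicate 16 had the highest Ighv sum of its group, 1398, and Die replicate 3 the highest Ighv3-6 value, 143. Die replicate 3 had 194 expressed genes at 0 and was low in 7S RNA. Sham replicate 10 had 169 for Igkv1-117 and sham replicate 2 had 32.8 for Igkv12-46.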

How the results depend on the processing

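Under all 159 alternatives of the 4 contrasts, 29 of them per contrast leaving out a library in turn, 0 members were called, and the smallest adjusted p over the members lay between 0.145 and 0.979. Replicate numbers occur in several groups. A replicate block was fitted for the 3 contrasts against sham, with 10, 6 and 4 shared numbers. Under it 0 members were called, and the Igkv median was 1.05 for Live and −2.02 for Die against sham. Only libraries with shared numbers entered these fits. For Die against sham the Die libraries were replicates 2, 3, 4 and 10, all with a 7S RNA share under 10%, unlike the sham libraries of those numbers. For Live against sham, sham replicate 1 was included. The effect of the block and that of the libraries kept cannot be told apart. Same-numbered libraries did not deviate together from their group means: their correlations lay between −0.19 and 0.04, and 0 of 10 were over 0.1. Whether the numbers stand for a pairing of animals cannot be settled by these correlations. Under that block 4 named genes turned sign: Ighv1-34 to 0.30 for Live against sham, and Igkv3-7 to −0.15, Igkv1-108 to −0.60 and Igkv16-104 to −0.11 for Die against sham. Ighv1-15 turned to −0.17 for Die against Live without the 3 libraries with many genes at 0, and Igkv12-46 to 0.18 for Die against sham without the 6 libraries low in 7S RNA, a setting chosen after seeing the data. The cause was not tested.

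Without those 6 libraries the difference between Die and Live was 5.19 for the Ighv effective number, 2.67 for Igkv, 0.12 percentage points for the share of the most used Igkv gene and −8.81 for the Igkv sum, and Die exceeded sham by 758 in the Igkv sum. Without the 3 libraries with many genes at 0 the Igkv effective number differed by −2.57 between Die and Live. With genes summed by family, Live minus sham was 4.996 percentage points for the top Ighv family, and Die minus Live was −0.39 for the Igkv effective number and 1.99 points for the top Igkv family. Genes stood out 84 and 16 times at 5 times the median share (Ighv and Igkv), 32 and 4 times at 20 times, and 8 and 1 times at a share of at least 5%. Depth, unknown here, limits the detection of V genes with low values. The array weights raised the count of all genes called to 481 for irradiated against sham and 716 for Live against sham, with 0 members among them. A pseudocount of 5 took the Igkv median from 0.59 to 0.40 for Live against sham and from −0.39 to −0.15 for Die against sham.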
